A study of Homo sapiens with 6 samples.

Results

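The BCL2 family sets whether a mitochondrion keeps its outer membrane closed or releases the proteins that start apoptosis. Its anti-apoptotic members (MCL1, BCL2L1 and BCL2 among them) bind and hold the pore-forming effectors BAK1 and BAX, and the small BH3-only members either occupy the groove of the anti-apoptotic proteins or act on the effectors directly. Renal cancer cell lines often rely on BCL-XL, the product of BCL2L1, and on MCL1 for survival, and the balance is set by protein amounts as well as mRNA, since MCL1 and PMAIP1 proteins are short-lived. Only mRNA was measured here.

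The genes described are 10 of the 58735 rows of the count table, taken by gene name: the anti-apoptotic MCL1, BCL2L1 and BCL2, the effector BAK1, and the BH3-only genes BCL2L11, BID, BAD, PMAIP1, BIK and BMF. RNA-seq covered 6 libraries of ACHN, a human renal cancer cell line grown in minimum essential medium with serum: 3 from cells transfected with an siRNA against OTUD1, a deubiquitinase, and 3 from cells transfected with a control siRNA. The library names point to 1 OTUD1 siRNA, and the labels give neither its sequence nor the time after transfection. Whether the libraries within a group were grown as separate cultures is not stated either, so p-values cover only library-to-library spread, which may be technical. In RNA from many cells, a lower level in every cell and a loss of some cells cannot be told apart.

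Total counts were 17243433 to 21013530 in the OTUD1 siRNA libraries and 16753495 to 18993534 in the control libraries. OTUD1 itself stood at 0.844 to 1.39 CPM (counts scaled to library size) after OTUD1 siRNA, against 3.69 to 3.82 CPM in the control libraries (log2 fold change -1.69, SE 0.24). The renal transcription factor PAX8 and the keratins KRT8 and KRT18, which mark the epithelial origin of the line, were expressed in all libraries, while the renal marker CDH6 had no count. The 10 renal markers summed to 3600 to 3740 CPM after OTUD1 siRNA and to 6790 to 7050 CPM in the controls, with KRT8 at 1910 to 1990 CPM after OTUD1 siRNA and 4000 to 4190 CPM in the controls. KRT8 and KRT18 make up most of that sum, and the keratin KRT19 of the same list went the other way, with 468 to 484 CPM after OTUD1 siRNA and 333 to 381 CPM in the controls. The 8 leukocyte markers summed to 1.19 to 1.94 CPM after OTUD1 siRNA and 1.54 to 1.81 CPM in the control libraries, with PTPRC, CD3E, LYZ and MS4A1 at 0. The 5 fibroblast markers summed to 12 to 14.6 CPM after OTUD1 siRNA and to 7.6 to 10.2 CPM in the controls, and the 4 endothelial markers reached at most 0.934 CPM in any library. The part of these marker differences in the results below was not tested.

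What the 10 genes share is the BH3 core, a short helix with a conserved leucine, and, after 3 variable residues and a small residue, a conserved aspartate. It is shown because it is the stretch with which the BH3-only members occupy the groove of the anti-apoptotic proteins. Each line gives the 27 coding bases of that core from the principal coding transcript in GENCODE 29, with the codon of the leucine and the codons of the small residue and the aspartate in capitals.
MCL1: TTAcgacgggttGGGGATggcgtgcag
BCL2L1: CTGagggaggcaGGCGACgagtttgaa
BCL2: CTCcgccaggccGGCGACgacttctcc
BAK1: CTCgccatcatcGGGGACgacatcaac
BCL2L11: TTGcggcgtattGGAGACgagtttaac
BID: CTCgcccaggtcGGGGACagcatggac
BAD: CTCcggaggatgAGTGACgagtttgtg
PMAIP1: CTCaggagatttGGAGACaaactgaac
BIK: CTGgcctgcatcGGGGACgagatggac
BMF: CTTcagtgcattGCAGACcagttccac

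The core begins at residue 213 of the 350-residue MCL1 and at residue 29 of the 54-residue PMAIP1, which is little more than this helix. The closest pair over the 27 bases was BAK1 and BIK, with 21 identical bases, and the most distant was BID and BMF, with 10. The bare pattern is common, with a match in 34.8% of 19624 principal coding transcripts, and BID holds 2 matches, of which the known BH3 is shown. The counts are per gene and do not tell isoforms apart, so the long and short products of MCL1, BCL2L1 and BCL2L11 are summed.

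MCL1 fell and BCL2L1 and BAK1 rose after OTUD1 siRNA, while the BH3-only genes BCL2L11 and BID fell. The changes were small to moderate in size. MCL1 was 1.52-fold lower, BCL2L1 1.22-fold higher, BAK1 1.43-fold higher, BCL2L11 1.76-fold lower and BID 1.29-fold lower. PMAIP1 also passed as lower, by 1.07-fold. BCL2, BAD and BIK did not pass, and BMF had too few counts to be tested.

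In all, 9 of the 10 genes were tested and 6 passed (2 higher, 4 lower), with edgeR's quasi-likelihood test at a Benjamini-Hochberg adjusted p under 0.05. Across the 15244 genes tested, 60.5% passed (4467 higher, which is 29.3%, and 4749 lower, which is 31.2%), so the 66.7% among these 9 is close to the background. The split over all genes was 6198 higher and 3463 lower when scaled by library totals and 5664 higher and 3804 lower with upper-quartile factors. The median log2 fold change was -0.08 over the 9 genes and 0.0056 over all genes tested. Regardless of direction, the median size of the log2 fold change was 0.468 over the 9216 genes that passed. MCL1, BAK1 and BCL2L11 changed by more than this, and BCL2L1, BID and PMAIP1 by less. By size of the change, BCL2L1 ranked 8193 and BID 6837 of the 15244 genes tested. The groups of libraries did not overlap for 6 of the 9 genes, with OTUD1 siRNA above in 2 and below in 4. Over all genes this held for 64.5%, with OTUD1 siRNA above in 31.5% and below in 33%. Values below are CPM scaled by the trimmed mean of M-values (TMM), with SDs over 3 libraries, and a positive log2 fold change means a higher level after OTUD1 siRNA. Gene identifiers and hg38 coordinates are those of GENCODE 29, matched by symbol.

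**Figure D1:**
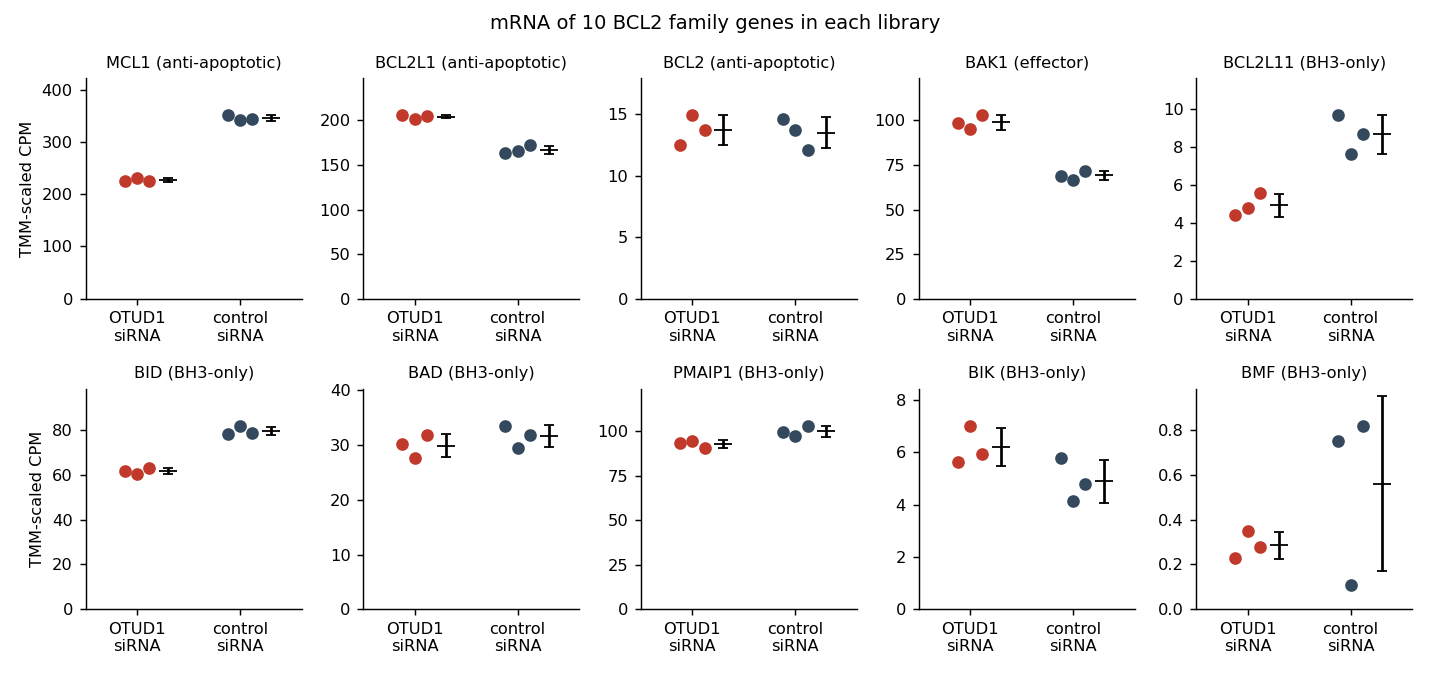
TMM-scaled CPM of each of the 10 genes in the 3 OTUD1 siRNA libraries (left in each panel) and the 3 control siRNA libraries (right), on linear axes from 0. Points are libraries and bars show the mean ± SD. MCL1, BCL2L1, BAK1, BCL2L11, BID and PMAIP1 have groups that do not overlap, while those of BCL2, BAD, BIK and BMF do.

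Among the anti-apoptotic genes, MCL1, whose protein holds BAK1 and is turned over within a short time, fell most clearly against its spread. MCL1 (ENSG00000143384.12; hg38 chromosome 1, 150574551 to 150579738, minus strand) had 226, 231 and 225 CPM after OTUD1 siRNA, against 351, 341 and 344 CPM after control siRNA. The OTUD1 siRNA libraries were close to one another and far below every control library. Its mean was 228 ± 3.11 CPM after OTUD1 siRNA and 345 ± 5.21 CPM in the control group. On the log2 scale it fell by 0.60 (SE 0.0315, edgeR adjusted p = 2.43e-20). MCL1 ranked 376 of 15244 genes by p-value but 3774 by the size of the change.

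BCL2L1, which encodes BCL-XL, moved the other way. BCL2L1 (ENSG00000171552.12; chromosome 20, 31664452 to 31723989, minus strand) had 206, 202 and 205 CPM in the OTUD1 siRNA libraries, against 163, 166 and 172 CPM in the control libraries. The lowest OTUD1 siRNA library was well above the highest control library. The increase was 0.29 on the log2 scale (SE 0.0352), and edgeR gave an adjusted p = 2.04e-09. The antisense gene ABALON shares 1424 exonic bases with BCL2L1 on the opposite strand, and held 107 to 126 counts after OTUD1 siRNA and 81 to 90 in the controls. How reads in the shared bases were counted is not known, so the BCL2L1 counts are uncertain.

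BCL2, the founding member of the family, was low and showed no detectable change. BCL2 (ENSG00000171791.12; chromosome 18, 63123346 to 63320128, minus strand) had 12.5, 14.9 and 13.7 CPM after OTUD1 siRNA and 14.6, 13.7 and 12.1 CPM after control siRNA. The groups overlapped over most of their range. The fitted change was 0.03 on the log2 scale (SE 0.101, edgeR adjusted p = 0.845). The 95% interval was -0.18 to 0.23, so a change within that interval is not excluded.

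BAK1 encodes the effector that sits in the outer mitochondrial membrane and forms pores once released from MCL1 and BCL-XL. BAK1 (ENSG00000030110.12; chromosome 6, 33572547 to 33580293, minus strand) had 98.6, 95.1 and 103 CPM in the OTUD1 siRNA libraries, against 69.1, 66.5 and 71.9 CPM in the control libraries. Every OTUD1 siRNA library was higher than every control library. The increase of 0.52 on the log2 scale (SE 0.0469), with an edgeR adjusted p = 7.94e-13, was the largest among the 9 genes tested. Counts assigned to its processed pseudogene BAK1P1 were 23 to 50 after OTUD1 siRNA and 10 to 26 in the controls, against at least 1104 counts of BAK1.

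The 6 BH3-only genes differed among themselves. BCL2L11 encodes BIM, a strong activator that binds all anti-apoptotic members. BCL2L11 (ENSG00000153094.22; chromosome 2, 111119378 to 111168447, plus strand) had 4.42, 4.77 and 5.61 CPM after OTUD1 siRNA, against 9.7, 7.65 and 8.7 CPM after control siRNA. The highest OTUD1 siRNA library was below the lowest control library. Its change of -0.82 on the log2 scale (SE 0.14; adjusted p = 2.63e-06 with edgeR) was the largest of the 9 genes, resting on 96 to 101 counts per OTUD1 siRNA library and 139 to 155 per control library. The long non-coding RNA gene MIR4435-2HG shares 727 exonic bases with it on the opposite strand and held 643 to 716 counts after OTUD1 siRNA and 501 to 602 in the controls. With the strand setting of the counting unknown, the BCL2L11 counts are uncertain as well.

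BID, which caspase-8 cleaves to carry a death receptor signal to the mitochondrion, also fell. BID (ENSG00000015475.18; chromosome 22, 17734138 to 17774770, minus strand) had 61.8, 60.1 and 62.9 CPM in the OTUD1 siRNA libraries, against 78.2, 81.7 and 78.4 CPM in the controls. The groups were well apart, and BID fell by 0.37 on the log2 scale (SE 0.0481; adjusted p = 1.2e-08 with edgeR).

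PMAIP1 encodes NOXA, which binds MCL1 and promotes its degradation. PMAIP1 (ENSG00000141682.11; chromosome 18, 59899948 to 59904306, plus strand) had 93.5, 94.5 and 90.4 CPM after OTUD1 siRNA, against 99.4, 97.2 and 103 CPM after control siRNA. The groups did not overlap but nearly touched. Its change of -0.10 on the log2 scale (SE 0.043; adjusted p = 0.0359 with edgeR) depends on the scaling and on single libraries. It was 0.0258 with library totals, -0.0045 after quantile normalization and -0.01 with upper-quartile factors, and was not called in any of these. It was also not called with DESeq2 (adjusted p = 0.0932), at a minimum mean of 5 CPM (-0.06), without OTUD1 siRNA replicate 1 (-0.11), without OTUD1 siRNA replicate 3 (-0.08) and without control siRNA replicate 3 (-0.08).

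BAD and BIK did not pass. BAD, which binds BCL-XL and BCL2 and is kept inactive by phosphorylation, is encoded on chromosome 11 (ENSG00000002330.13; 64269830 to 64284704, minus strand). BAD had 30.1, 27.7 and 31.9 CPM after OTUD1 siRNA and 33.5, 29.5 and 31.8 CPM after control siRNA, with overlapping groups. It was at -0.08 on the log2 scale (edgeR adjusted p = 0.327, 95% interval -0.22 to 0.06). It shares 404 exonic bases with GPR137 on the opposite strand, a gene with 701 to 882 counts after OTUD1 siRNA and 532 to 614 in the controls, similar to the counts of BAD, 557 to 660 after OTUD1 siRNA and 535 to 545 in the controls. The BAD values are therefore uncertain too.

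BIK, a BH3-only protein of the endoplasmic reticulum, is encoded on chromosome 22 (ENSG00000100290.2; 43110748 to 43129712, plus strand). It had 5.61, 7 and 5.94 CPM in the OTUD1 siRNA libraries and 5.76, 4.13 and 4.79 CPM in the control libraries. Control replicate 1 overlapped the OTUD1 siRNA group. The change was 0.34 on the log2 scale (SE 0.154; unadjusted p = 0.031 and adjusted p = 0.0512 with edgeR), just above the threshold. BIK passed in 6 of the 16 alternatives and not in the other 10. Among the 6 were the fits without control siRNA replicate 1 (0.47, edgeR adjusted p = 0.0166) and without OTUD1 siRNA replicate 1 (0.41, edgeR adjusted p = 0.0429).

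BMF, a BH3-only protein that senses detachment of cells from their matrix, was close to the limit of counting. BMF (ENSG00000104081.13; chromosome 15, 40087890 to 40108892, minus strand) had 5, 7 and 5 counts in the OTUD1 siRNA libraries, against 12, 2 and 14 counts in the control libraries. Control replicate 2 lay below all OTUD1 siRNA libraries. The summed counts of 17 after OTUD1 siRNA and 28 after control siRNA give a ratio of 0.518 (95% exact binomial interval 0.266 to 0.98, counting error only). In the 6 alternative settings that gave BMF an adjusted p, it was below the threshold in 1, without control siRNA replicate 2 (log2 fold change -1.45, adjusted p = 0.0212).

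**Figure D2:**
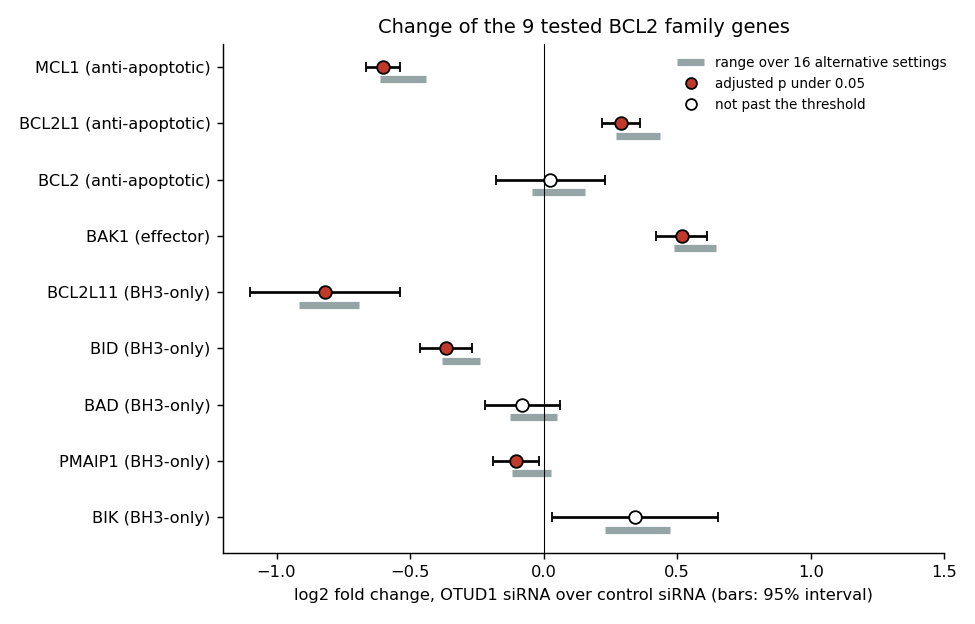
Log2 fold changes of the 9 tested genes (points, with 95% intervals as black bars) and, beneath each, the range of the same value over 16 alternative settings (grey). Filled points passed the adjusted p threshold. The grey ranges of MCL1, BCL2L11 and BID lie below 0 and those of BCL2L1, BAK1 and BIK above it, while those of BCL2, BAD and PMAIP1 cross it.

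Levels of different genes were compared as CPM per kb of the principal transcript. On this scale BCL2L1 was above MCL1 after OTUD1 siRNA, and MCL1 was above BCL2L1 after control siRNA. MCL1 had 57.5, 58.8 and 57.3 CPM per kb in the OTUD1 siRNA libraries, against 89.3, 86.7 and 87.5 in the control libraries. BCL2L1 had 78.9, 77.3 and 78.6 CPM per kb in the OTUD1 siRNA libraries, against 62.6, 63.7 and 65.9 in the control libraries. The order of the pair was therefore the opposite in the 2 groups, in every library.

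The ratio of BCL2L1 to MCL1 within a library does not depend on how libraries are scaled to one another. It was 1.37, 1.31 and 1.37 after OTUD1 siRNA, against 0.701, 0.734 and 0.753 after control siRNA. With the length of all merged exons in place of the principal transcript, it was 1.15 to 1.2 after OTUD1 siRNA and 0.614 to 0.659 after control siRNA, still on opposite sides of 1. MCL1 made up 41.6% to 42.6% of the summed per-length level of MCL1, BCL2L1 and BCL2 in the OTUD1 siRNA libraries and 56.4% to 58% in the control libraries. The sum itself was 138 CPM per kb in each OTUD1 siRNA library and 152 to 155 in the control libraries. It leaves out the anti-apoptotic genes BCL2L2 and BCL2A1, which rose. BCL2L2 had a mean of 44.3 CPM after OTUD1 siRNA and 32.1 CPM in the controls, and BCL2A1 had 15.7 and 10.6 CPM. The sum is therefore not that of all anti-apoptotic genes. Unlike the ratio, the sum depends on how libraries are scaled, and it is given with TMM scaling only. The TMM factors, by which counts are divided, were 1.045 to 1.046 after OTUD1 siRNA and 0.9549 to 0.9572 in the controls. Without these factors the difference in the sum would be smaller. BCL2 contributed 1.21% to 1.45% of the sum after OTUD1 siRNA and 1.05% to 1.27% in the controls.

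The ratios of BAK1, PMAIP1 and BID to MCL1 were also higher after OTUD1 siRNA. BAK1 per MCL1 was 0.803, 0.757 and 0.842 in the OTUD1 siRNA libraries and 0.362, 0.359 and 0.385 in the control libraries, groups far apart. PMAIP1 per MCL1 was 0.835, 0.825 and 0.809 after OTUD1 siRNA and 0.572, 0.576 and 0.602 after control siRNA, although the PMAIP1 level itself barely moved. BAK1 per BCL2L1 differed less, at 0.586, 0.576 and 0.615 after OTUD1 siRNA and 0.517, 0.489 and 0.511 after control siRNA. BID per MCL1 was 0.43, 0.41 and 0.44 after OTUD1 siRNA and 0.351, 0.378 and 0.359 after control siRNA, although BID itself fell. BCL2L11 per MCL1 overlapped between the groups, at 0.0505 to 0.0643 after OTUD1 siRNA and 0.058 to 0.0714 after control siRNA. These ratios were chosen with the single-gene changes known and are given without a test.

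After MCL1 and BCL2L1, the per-length order was PMAIP1 (46.4 to 48.5 CPM per kb after OTUD1 siRNA, 49.9 to 52.7 after control siRNA) and BAK1 (44.5 to 48.3 after OTUD1 siRNA, 31.1 to 33.7 after control siRNA). The ranges of these neighbours overlapped after OTUD1 siRNA and were separate in the controls. BID, at 24.1 to 25.2 CPM per kb after OTUD1 siRNA, lay within the range of BAD there (23.9 to 27.6), but above it in the controls (31.3 to 32.7 for BID and 25.5 to 28.9 for BAD). BIK and BCL2L11 followed and overlapped in the controls, then BCL2 at no more than 2 CPM per kb, with BMF lowest at no more than 0.174. The order of several neighbours depends on the length used. On merged exons BAK1 (43 to 46.6 CPM per kb) was above PMAIP1 (40.4 to 42.3) after OTUD1 siRNA, and BID (13.5 to 14.2) was below BAD (16.2 to 18.7) there and overlapped it in the controls (17.6 to 18.4 for BID and 17.3 to 19.6 for BAD). For BCL2L11 the level itself moved: its mean was 3.24 CPM per kb after OTUD1 siRNA and 5.71 after control siRNA on the principal transcript, but 0.741 after OTUD1 siRNA and 1.3 after control siRNA on merged exons, below BCL2 after OTUD1 siRNA.

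**Figure D3:**
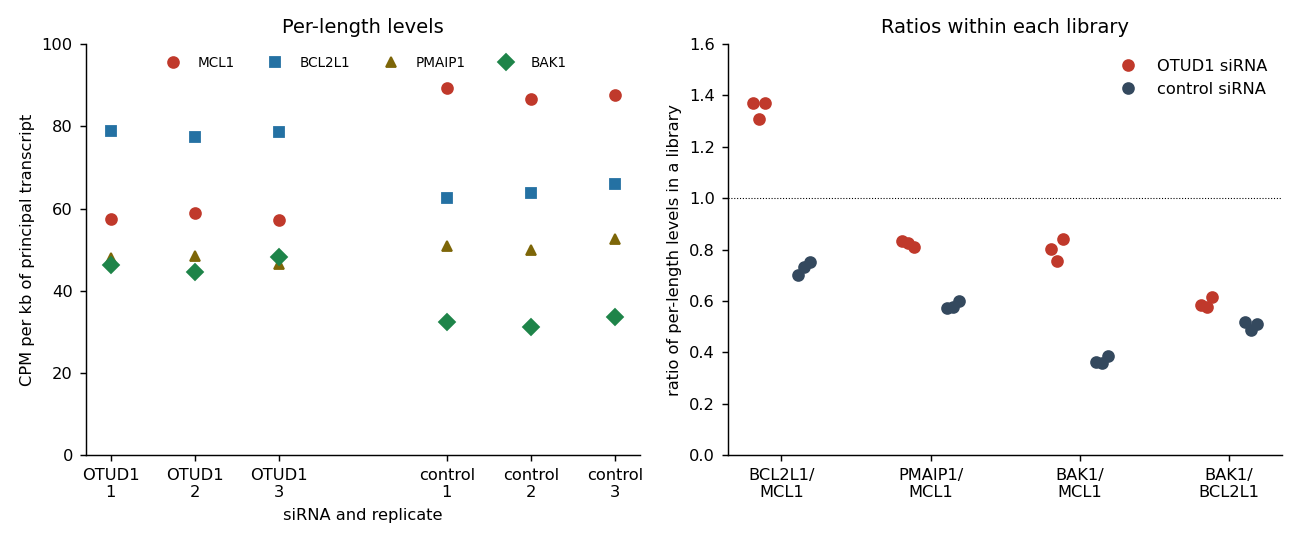
Left, CPM per kb of principal transcript of MCL1, BCL2L1, PMAIP1 and BAK1 in each library. Right, ratios of these levels within each library, OTUD1 siRNA left of control siRNA, with the dotted line at 1. The BCL2L1 to MCL1 ratio lies between 1.31 and 1.37 after OTUD1 siRNA and between 0.701 and 0.753 after control siRNA.

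The genes whose pattern over the 6 libraries was most like that of MCL1, the gene with the smallest adjusted p, were SERBP1, CNOT11 and SUMO2, out of 12736 protein-coding candidates. The root-mean-square difference of their centred log2 CPM from that of MCL1 was 0.013, 0.0131 and 0.0151. Their log2 fold changes were -0.62, -0.59 and -0.59. With 2 groups of 3 libraries, this likeness is mainly that of the size of the group difference.

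A match of 7 bases to an siRNA guide in a 3′ UTR can lower an mRNA, as is known for siRNAs in general. The 7-mers CAAACAA and AAACAAA were singled out by earlier results of these data, and no source used here gives the sequence of the siRNA against OTUD1. Both were searched on the sense strand of the 3′ UTR of the principal transcript, and the 2 overlap where CAAACAAA occurs, which is shown once, as CAAACAA. The sites found in the 10 genes fall in MCL1, BCL2 and BID and are shown with 9 bases on either side, the 7-mer in capitals, beside the site of OTUD1 itself.
MCL1, bases 228 to 234 of the 3′ UTR: tttcagcaaCAAACAAactttgttt
BCL2, bases 18 to 24: tgcctgcccCAAACAAatatgcaaa
BCL2, bases 3355 to 3361: aatttagttCAAACAAgacgccaac
BCL2, bases 84 to 90: tgtaccatgAAACAAAgctgcaggc
BCL2, bases 3645 to 3651: cttatcctaAAACAAAtagtttata
BID, bases 346 to 352: aggaagtagAAACAAAatacaattt
BID, bases 1294 to 1300: agaaaggaaAAACAAActctatatt
OTUD1, bases 1081 to 1087: ttgctgggtCAAACAAtgtttccaa

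CAAACAA was present in 14% of the 12407 tested genes with a 3′ UTR searched, and in 23.4% of the 6621 with at least 1000 bases of it. Since the 7-mers were picked from these data, the values of their carriers restate that choice and are given as a description only. Carriers of CAAACAA had a median log2 fold change of -0.25, with 53.9% called lower and 17.1% called higher. Genes with AAACAAA alone had a median of -0.13, with 45.3% called lower, and genes with neither had a median of 0.03, with 29.1% called lower and 33.7% higher. Carriers have longer 3′ UTRs (median 2976 bases with CAAACAA and 701 with neither). Among 3′ UTRs of at least 1000 bases the median log2 fold changes were -0.25 for CAAACAA, -0.13 for AAACAAA alone and 0.02 for neither, and the classes still differed in length, with medians of 3301, 2803 and 1760 bases. The part of 3′ UTR length was not tested.

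MCL1 carries CAAACAA in all 3 of its coding transcripts and fell by 0.60 on the log2 scale. BCL2 carries 2 copies of CAAACAA in 5279 bases and was at 0.03, with no detectable change. BID, which fell, carries AAACAAA at 2 places and no CAAACAA. BCL2L1 and BAK1, which rose, hold neither 7-mer in 3′ UTRs of 1497 and 1251 bases, nor do PMAIP1, BAD, BIK and BMF. BCL2L11, which fell the most, holds neither in its principal 3′ UTR of 817 bases, while 8 of its 21 coding transcripts with a 3′ UTR carry AAACAAA. The part of these 7-mers in the changes of the BCL2 family genes was not tested.

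**Figure D4:**
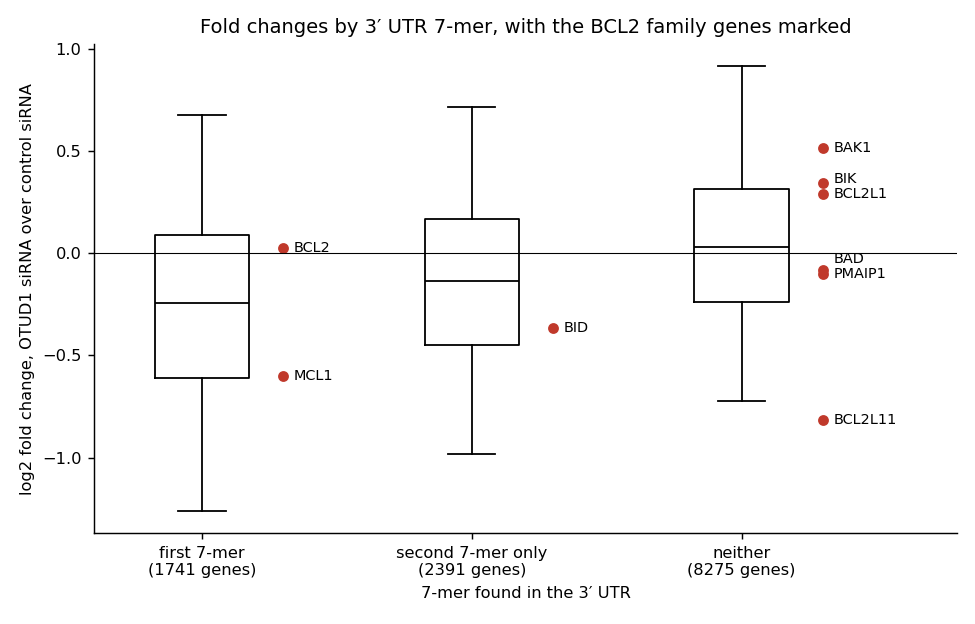
Log2 fold changes of tested genes by 7-mer in the 3′ UTR: CAAACAA (first 7-mer), AAACAAA alone (second 7-mer only) or neither. Boxes span the quartiles with the median, whiskers the 5th to 95th percentiles, and red points mark the 9 tested BCL2 family genes. MCL1 and BCL2 fall in the first class, BID in the second and the other 6 in the last.

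The remaining BCL2 family genes changed in both directions. Of 13 listed, 9 were tested, of which 5 rose and 4 fell (median log2 fold change 0.33). BCL2L13, an outer-membrane member that also serves as a mitophagy receptor, rose 1.49-fold (0.57 on the log2 scale, SE 0.0425; adjusted p = 1.85e-15 with edgeR). BOK, an effector-like member, rose 1.43-fold (0.51, SE 0.0531), and BNIP3, a hypoxia-induced mitophagy receptor, fell 1.23-fold (-0.30, SE 0.0386). Named after their values were seen, as the partners of the genes above, BBC3, which encodes PUMA, rose 1.26-fold, and BAX, the second effector, fell 1.11-fold (-0.15, SE 0.0351; adjusted p = 0.000273 with edgeR). The BAX call was lost with upper-quartile factors, library totals and quantile normalization, where its log2 fold change was -0.06, -0.02 and 0.0068, whereas the rise of BAK1 was called in all 16 alternatives. HRK, BCL2L10, BCL2L14 and BCL2L15 had too few counts.

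The 13 genes of the apoptosome, the caspases and the released proteins split into 6 higher, 4 lower and 3 that did not pass. Their 13 symbols match 14 rows of the count table, and only the first row of a repeated symbol was used. CASP2, an initiator caspase, fell 1.69-fold (-0.76 on the log2 scale, SE 0.0544; adjusted p = 6.22e-16 with edgeR). CYCS, which encodes the cytochrome c that MCL1 and BCL-XL keep inside, rose 1.4-fold (0.49, SE 0.0328). Of the 6 inhibitor of apoptosis genes, which block caspases or their activation, 5 fell and 1 did not pass (median -0.35). The falls were 2.79-fold for BIRC3, 1.29-fold for BIRC2 and 4.72-fold for the low-level BIRC7. BIRC5, which did not pass, was at -0.08 (edgeR adjusted p = 0.0691).

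Of the 10 genes of the death receptor arm that ends in the cleavage of BID, 5 fell and 2 rose (median -0.10). FAS fell 1.79-fold, the TRAIL receptor TNFRSF10A 1.6-fold and the caspase-8 inhibitor CFLAR 1.25-fold, while the adaptor TRADD rose 1.4-fold. Of 7 tested genes for enzymes that add ubiquitin to MCL1 or remove it, 6 fell and 1 did not pass (median -0.34). Those that fell include both deubiquitinases of the list, USP13 (2.28-fold lower; -1.19 on the log2 scale, SE 0.0659, adjusted p = 1.5e-19 with edgeR) and USP9X (1.24-fold lower), and the mitotic ligase activator CDC20 (1.46-fold lower). Another gene of the list was not matched by symbol and is not analysed here. Among the channels of the outer mitochondrial membrane, VDAC1 and VDAC2 fell 1.18-fold and 1.14-fold with TMM scaling, but neither passed after quantile normalization (-0.0289 and -0.0359), VDAC2 did not with library totals (-0.0636), and VDAC3 was at -0.02.

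Of 13 transcription factor genes known to act on the family, 4 rose and 8 fell (median -0.20). STAT5A, which encodes a factor that activates BCL2L1 in blood cells, fell 2-fold (adjusted p = 3.22e-19 with edgeR). RELA, which encodes an NF-kB subunit, fell 1.65-fold and MYC fell 1.38-fold, while STAT3 rose 1.34-fold. The called shares of these lists ran from 66.7% to 100%, beside 60.5% over all genes, and the lists are short.

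**Figure D5:**
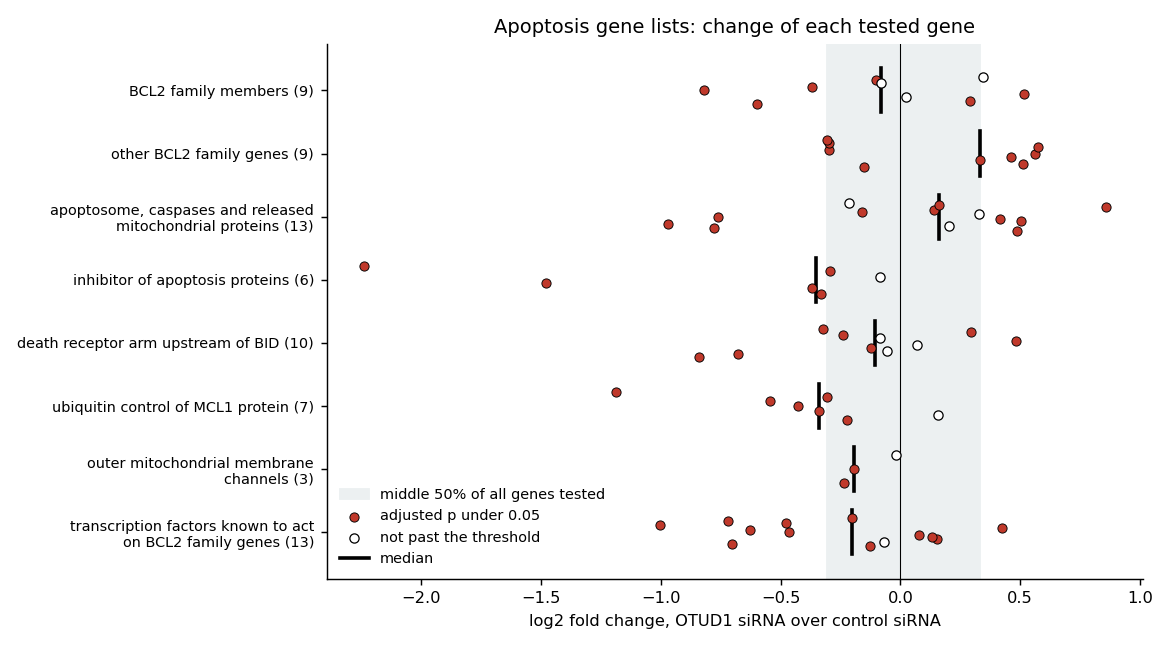
Log2 fold changes of every tested gene of the 10 and of the 7 related lists, with the number tested in brackets, the list median as a black bar and the middle 50% of all tested genes in grey. Filled points passed the adjusted p threshold. The medians run from -0.35 for the inhibitors of apoptosis to 0.33 for the other BCL2 family genes.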

How the data were processed

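RNA-seq libraries of ACHN cells were compared, 3 with OTUD1 siRNA against 3 with control siRNA. Trizol was used to harvest RNA and a directional NEBNext kit to build libraries, per the labels' protocols. The submitters' processing notes name the build hg38, while no source used here names the aligner, the annotation or how reads were counted and on which strand. The deposited values are whole-number counts per gene symbol, although the table's name speaks of FPKM, and were treated as raw counts. Of 58735 rows, 30560 had no count in any library.

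Genes were kept by filterByExpr (a minimum count of 10 and a minimum total of 15), scaled by TMM and tested with glmQLFit (robust) and glmQLFTest of edgeR 4.0.16 in R 4.3.3, two-sided, Benjamini-Hochberg adjusted over 15244 genes. SEs were derived from each gene's F statistic. A count of 3 equals 0.137 to 0.188 CPM, and intervals from summed counts cover counting error only. Libraries of a group differed beyond sampling noise (chi-square of 2.05 to 3.72 per gene on average), so none was counted as a copy. Gene models, lengths and transcript sequences are from GENCODE 29, of the same build. The fit was tested on simulated data in which few genes changed, equally in both directions. That setting cannot check the scaling in these data, where most genes tested were called.

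The 10 genes and the related lists were chosen with earlier results of these data known. All 10 genes were named. From each related list, the called genes lowest in adjusted p (up to 3) and 1 called against the majority, if any, were named. A gene that this rule names is not reported here. BAX, BBC3, BCL2L2 and BCL2A1 were added after their values were seen. BIRC5 and VDAC3, which did not pass, and the genes with too few counts were also named outside the rule. Alternatives covered filter, scaling, tool (DESeq2 1.42.0, limma 3.58.1), dispersion, replicate block and leaving out each library.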

Additional observations from a re-analysis of the deposited data

How the results depend on the processing

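Over the 16 alternatives, MCL1, BCL2L1, BAK1, BCL2L11 and BID kept their direction and their call, with log2 fold changes of -0.61 to -0.44, 0.27 to 0.43, 0.49 to 0.65, -0.92 to -0.69 and -0.38 to -0.24. Between 5 and 7 of the 10 genes were called in each. PMAIP1 lost its call in 8 of 16 alternatives and was 0.0258 with library totals. BIK passed in 6. BAD was 0.0132 with upper-quartile factors and 0.049 with library totals. BCL2 was not called in any, at -0.0449 to 0.0908 when libraries were left out. BAX was 0.0068 after quantile normalization with limma, where 0 of the 3 outer-membrane channel genes passed, against 2 with TMM. The median over all genes was 0.134 with library totals and 0.0056 with TMM, which bears on changes as small as those of PMAIP1 and BAD. The causes of these differences were not tested.

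Libraries with the same replicate number did not deviate together (correlations -0.0229, 0.0178 and -0.0182), so the numbers were not taken as pairs. With the replicate number as a block, 6 of the 10 genes and 9277 genes in all were called, against 9216 without it. Low counts limit BMF, BCL2L11 and BIK.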
